A study of Mus musculus with 16 samples.

Results

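The genes described here are 10 markers of lipid-associated macrophages, the TREM2-positive macrophages known from obese adipose tissue and fatty liver. They were taken by gene name from a table of 23258 genes measured in mouse liver, and each of the 10 names matched 1 row. They were measured in 16 RNA sequencing libraries of whole liver from C57BL/6 mice. The 4 groups were liver-specific miR-33 knockout on high-fat diet (n = 5), wild type on high-fat diet (n = 4), liver-specific miR-33 knockout on chow (n = 4) and wild type on chow (n = 3). The name of the deposited table refers to Alb-Cre, a Cre recombinase driven by the albumin promoter, which is active in hepatocytes and not in macrophages. The labels give no age, sex, diet duration or batch, and do not say that replicates came from separate animals, so the p-values measure the spread between these libraries, which may in part be technical.

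Lipid-associated macrophages take up and break down lipid from dying or lipid-laden cells. TREM2 is a surface receptor for lipids and lipoproteins that signals through the adaptor TYROBP (DAP12) and the kinase SYK, and in mice it is needed for much of this programme. In fatty liver, cells with this programme arise largely from monocytes and gather around fat-laden hepatocytes and in fibrotic areas. Several members are not restricted to macrophages: Spp1 is also made by cholangiocytes and activated stellate cells, and Cd9, Cd63 and Lgals3 by many cell types.

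Values are estimated counts scaled to library size (CPM, the usual count-per-total scale, with TMM-adjusted totals), and groups are given as means ± SD. Library totals were between 15888436 and 29469645 estimated counts. Fold changes are log2 ± SE from edgeR's quasi-likelihood test, fitted to 16830 genes that passed a filter on low counts and adjusted by the Benjamini-Hochberg method, with a threshold of 0.05 on the adjusted p. All 10 members passed the filter. Trem2 and Gpnmb had at most 14.7 and 14 estimated counts in any chow library, so they passed it through the high-fat libraries. Hepatocyte markers (Alb and 9 others) together made up 81100 to 120000 CPM in each library. The share of counts on 1 ribosomal RNA gene, CT010467.1, varied between libraries. It was 0.637 to 12.3% in knockout and 1.36 to 10.3% in wild-type livers on high-fat diet, against 11.3 to 14.6% and 2.54 to 13.3% on chow. With that gene left out, 10 and 9 members rose with diet in knockout and wild-type livers. Over all alternative fits, 4631 to 5920 genes passed with diet in knockout livers and 3711 to 5224 in wild-type livers, in either direction. The miR-33 precursor was not analysed here, so the deletion itself was not checked. High-fat knockout 1 and chow wild type 3 stood apart from the other libraries on the third and second principal components. Library numbers follow accession order within a group and pair nothing. The high-fat and chow libraries carry separate series of sample numbers, so the diet and anything else that differed between these series cannot be told apart.

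On high-fat diet, 9 of the 10 members rose in knockout livers and 9 of 10 rose in wild-type livers. Gpnmb moved most in both genotypes, followed by a set of Trem2, Cd63, Spp1, Itgax and Lgals3, then Tyrobp and Atp6v0d2, and last Cd9. Fabp5 did not pass in either genotype. Of all genes tested, 33.6% passed in knockout livers, 17.4% higher and 16.2% lower, and 29.4% passed in wild-type livers, 15.2% higher and 14.2% lower. The median log2 fold change of the 10 members was 2.22 in knockout livers and 2.69 in wild-type livers, against medians over all genes of -0.01 and -0.02. The high-fat and chow groups did not overlap for 7 members in knockout livers, where 26.5% of all genes did not overlap, and for 9 members in wild-type livers, where 36% did not. At an unadjusted p under 0.05, 10 members passed in knockout livers and 9 in wild-type livers, against 43.7% and 40.1% of all genes. In whole-liver RNA, more macrophages and more RNA of a gene per macrophage cannot be told apart.

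**Figure D1:**
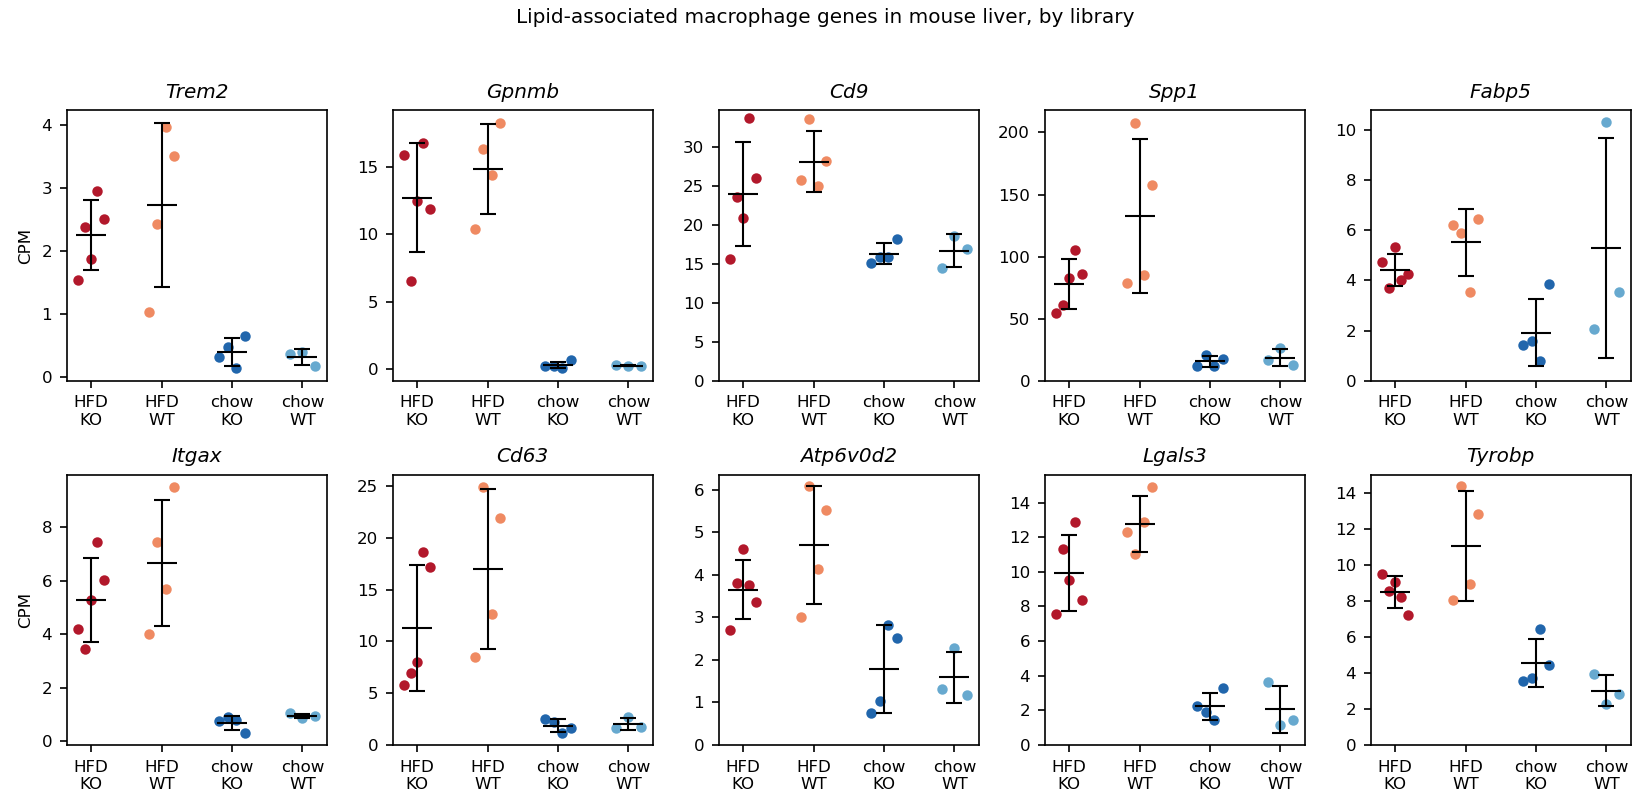
CPM of each member (vertical axis, linear) in every library, with the mean and SD of each group as bars, for knockout (KO) and wild type (WT) livers on high-fat diet (HFD) and chow. The high-fat libraries lie above the chow libraries in 9 of 10 panels for wild type, while Fabp5 is spread widely on chow.

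Trem2, the lipid-sensing receptor (chr17:48346401-48354147, plus strand, mm10), was scarce in every library. On high-fat diet it had 1.54, 2.38, 1.88, 2.96 and 2.51 CPM in knockout livers and 1.03, 2.43, 3.96 and 3.51 CPM in wild-type livers. On chow it had 0.326, 0.474, 0.142 and 0.662 CPM in knockout livers and 0.376, 0.408 and 0.178 CPM in wild-type livers. The lowest high-fat library, high-fat wild type 1, still lay above the highest chow library. The log2 fold change between diets was 2.41 ± 0.41 in knockout livers (adjusted p 0.000215) and 3.05 ± 0.49 in wild-type livers (adjusted p 0.000188).

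Tyrobp (chr7:30413760-30417585, plus strand) encodes the signalling adaptor that TREM2 shares with other receptors of myeloid and natural killer cells. On high-fat diet, knockout livers had 9.50, 8.57, 9.05, 8.20 and 7.20 CPM and wild-type livers had 8.06, 14.4, 8.93 and 12.8 CPM. On chow, knockout livers had 3.53, 3.70, 6.44 and 4.46 CPM and wild-type livers had 3.95, 2.27 and 2.84 CPM. The diets did not overlap within either genotype. It rose by 0.92 ± 0.21 on the log2 scale in knockout livers (adjusted p 0.00222) and by 1.86 ± 0.25 in wild-type livers (adjusted p 2.99e-05).

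Gpnmb (chr6:49036546-49070929, plus strand), a transmembrane glycoprotein of lysosomes and phagosomes that is strongly made by lipid-loaded macrophages, was near the detection limit on chow. It had 15.9, 6.50, 12.5, 16.8 and 11.9 CPM in knockout livers and 10.4, 16.3, 14.4 and 18.3 CPM in wild-type livers on high-fat diet. The chow values were 0.217, 0.172, 0.0708 and 0.618 CPM in knockout livers and 0.282, 0.175 and 0.237 CPM in wild-type livers. The chow values rest on 4, 3.63, 1.21 and 14 estimated counts in knockout livers and 6.00, 3.09 and 4 in wild-type livers. Every high-fat library lay above every chow library. The log2 fold change of Gpnmb was 5.43 ± 0.39 in knockout livers (adjusted p 1.1e-07), place 17 of 16830 genes by size, and 5.95 ± 0.47 in wild-type livers (adjusted p 4.07e-07), place 19. Without chow knockout 4, the chow library with most Gpnmb, the knockout value was 6.26.

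Spp1, or osteopontin (chr5:104435118-104441050, plus strand), a secreted ligand of integrins and CD44 linked to fibrosis, was the most abundant member on high-fat diet. On high-fat diet it had 54.3, 61.1, 82.6, 105 and 85.6 CPM in knockout livers and 78.5, 208, 85.2 and 158 CPM in wild-type livers. On chow it had 11.8, 20.8, 11.9 and 17.7 CPM in knockout livers and 16.5, 26.4 and 13 CPM in wild-type livers. High-fat wild type 2 and 4 stood above all other libraries. Spp1 rose by 2.31 ± 0.35 in knockout livers (adjusted p 0.000268) and by 2.83 ± 0.41 in wild-type livers (adjusted p 0.000241), both on the log2 scale. Its gene overlaps a same-strand gene model of unknown coding status, Gm42793, and the rule by which reads there were assigned is not known here.

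Itgax, the integrin subunit CD11c of dendritic cells and activated macrophages (chr7:128129547-128150657, plus strand), had at most 1.03 CPM in any chow library. On high-fat diet, knockout livers had 4.21, 3.44, 5.28, 7.46 and 6.01 CPM and wild-type livers had 4.01, 7.44, 5.68 and 9.51 CPM. On chow, knockout livers had 0.761, 0.905, 0.779 and 0.309 CPM and wild-type livers had 1.03, 0.874 and 0.947 CPM. The groups were well apart, with a log2 fold change of 2.95 ± 0.32 in knockout livers (adjusted p 3.48e-06) and 2.79 ± 0.36 in wild-type livers (adjusted p 2.1e-05). Itgax was the only member apart from Fabp5 whose fitted rise was larger in knockout than in wild-type livers. That difference, 0.16 ± 0.48, did not pass. Itgad, a neighbour in sequence at 95.0% identity, averaged 0.0909 CPM.

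Lgals3 or galectin-3 (chr14:47367751-47386160, plus strand), a sugar-binding protein of damaged lysosomes and phagocytes, had 7.54, 11.3, 9.53, 12.9 and 8.36 CPM in knockout livers and 12.3, 11, 12.9 and 14.9 CPM in wild-type livers on high-fat diet. The chow values were 2.28, 1.90, 1.42 and 3.31 CPM in knockout livers and 3.62, 1.16 and 1.42 CPM in wild-type livers. High-fat libraries were all above chow libraries. Lgals3 rose by 2.13 ± 0.28 in knockout livers (adjusted p 2.38e-05) and by 2.59 ± 0.32 in wild-type livers (adjusted p 2.32e-05) on the log2 scale. Without chow wild type 1 the wild-type value was 3.30.

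The tetraspanins, membrane organisers of endosomes and exosomes, differed in level and in the size of their change. Cd63 (chr10:128900989-128912822, plus strand), the lysosomal member, had 5.80, 6.91, 7.98, 18.6 and 17.2 CPM in knockout livers and 8.52, 24.9, 12.6 and 21.9 CPM in wild-type livers on high-fat diet. On chow it had 2.50, 2.20, 1.20 and 1.63 CPM in knockout livers and 1.65, 2.74 and 1.78 CPM in wild-type livers. The high-fat values of Cd63 were spread widely, with a coefficient of variation of 54.0% in knockout livers and 45.4% in wild-type livers, and still did not overlap with chow. It rose by 2.57 ± 0.46 in knockout livers (adjusted p 0.000709) and by 3.05 ± 0.53 in wild-type livers (adjusted p 0.000686) on the log2 scale. A processed copy, Cd63-ps, matches its transcripts at 99.0% identity over up to 858 bases and moved with it, so reads may be divided between them. Cd63 and Cd63-ps together had 16.5 ± 8.12 CPM in knockout livers and 24.7 ± 10.8 CPM in wild-type livers on high-fat diet (SD, n = 5 and 4), against 3.33 ± 0.868 and 3.32 ± 0.866 CPM on chow (n = 4 and 3).

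Cd9 (chr6:125460266-125494791, minus strand), the plasma membrane tetraspanin, was abundant on both diets and changed least among the members that passed. On high-fat diet it had 15.6, 23.6, 20.8, 33.7 and 26 CPM in knockout livers and 25.7, 33.5, 25 and 28.2 CPM in wild-type livers. On chow, knockout livers had 15.1, 15.9, 15.9 and 18.2 CPM and wild-type livers had 14.4, 18.6 and 16.9 CPM. The library high-fat knockout 1 lay within the range of chow knockout livers, while the wild-type groups were apart. The log2 rise was 0.56 ± 0.16 in knockout livers (adjusted p 0.0142) and 0.76 ± 0.19 in wild-type livers (adjusted p 0.00567). Cd9 overlaps the opposite-strand models Gm28809 and Gm26728, and without a known strand setting their reads cannot be told apart from its own. Its copy Cd9-ps averaged 0.228 CPM.

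Atp6v0d2 (chr4:19876841-19922605, minus strand) encodes the d2 subunit of the proton pump V-ATPase, found in macrophages and osteoclasts. On high-fat diet, knockout livers had 2.71, 3.81, 4.61, 3.77 and 3.37 CPM and wild-type livers had 3.02, 6.09, 4.13 and 5.53 CPM. The chow values were 0.761, 1.03, 2.83 and 2.52 CPM in knockout livers and 1.32, 2.27 and 1.18 CPM in wild-type livers. Chow knockout 3 lay just above the lowest high-fat knockout library, so the knockout groups overlapped. It rose by 1.06 ± 0.33 in knockout livers (adjusted p 0.0179) and by 1.56 ± 0.38 in wild-type livers (adjusted p 0.00477) on the log2 scale. In knockout livers it did not pass without chow knockout 1 (0.81, adjusted p 0.0631) or without chow knockout 2 (0.86, adjusted p 0.0683), the only losses in 24 alternatives, where its adjusted p was 0.00558 to 0.0683.

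Fabp5 (chr3:10012548-10016607, plus strand), a carrier of fatty acids made by macrophages and many other cells, was the exception. On high-fat diet it had 4.73, 3.71, 5.34, 4.01 and 4.26 CPM in knockout livers and 6.23, 5.88, 3.54 and 6.43 CPM in wild-type livers. On chow it had 1.41, 1.59, 0.779 and 3.84 CPM in knockout livers and 2.07, 10.3 and 3.55 CPM in wild-type livers. Chow wild type 2 held more Fabp5 than any high-fat library, and the diets overlapped in both genotypes. The log2 fold change was 1.16 ± 0.44 in knockout livers (adjusted p 0.054) and 0.07 ± 0.46 in wild-type livers (adjusted p 0.93). Without chow wild type 2 the wild-type value was 0.99 (adjusted p 0.103). Without chow knockout 4 the knockout value was 1.76 (adjusted p 0.00742), and it also passed by DESeq2 (1.20, adjusted p 0.0116) and by limma voom (1.32, adjusted p 0.0297). Over the 24 alternatives its adjusted p in knockout livers was 0.00742 to 0.135.

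**Figure D2:**
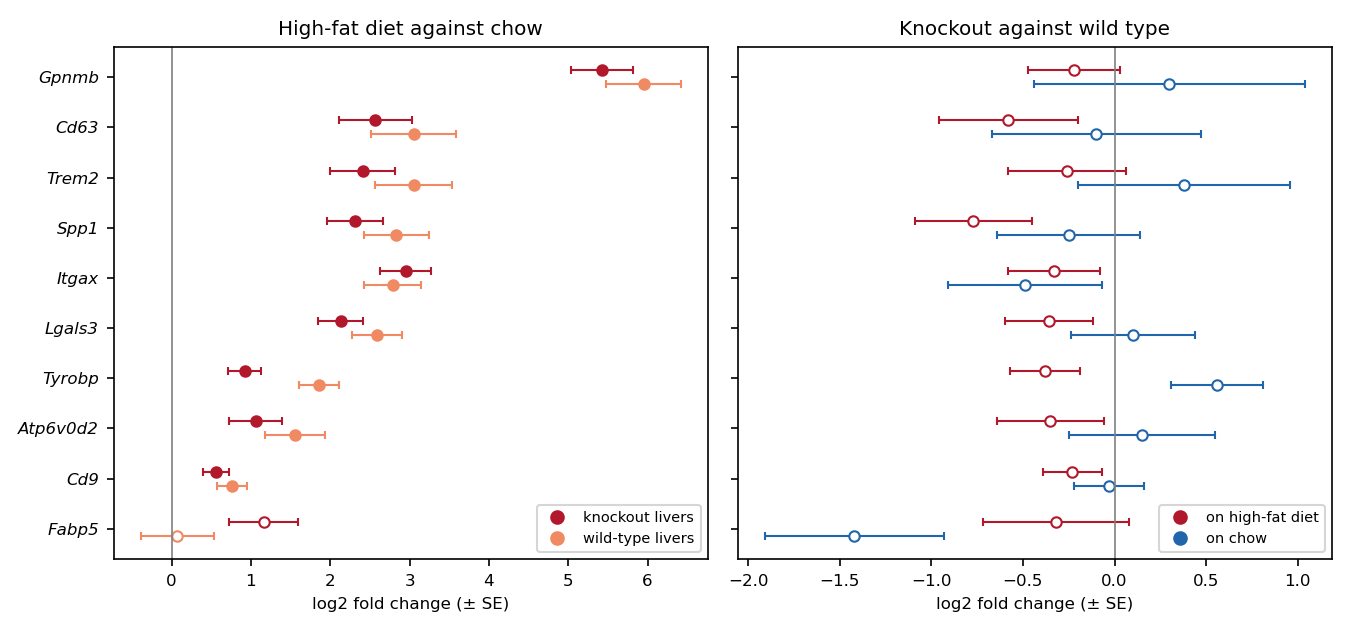
Log2 fold change ± SE (horizontal axis) of each member for high-fat diet against chow in knockout and wild-type livers (left) and for knockout against wild type on each diet (right), where filled points passed the threshold on the adjusted p and open points did not. On the left 9 of 10 members pass in each genotype, and on the right none pass, with all 10 points for high-fat diet below 0.

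To compare levels between genes, CPM were divided by the length of the longest coding transcript in kilobases (RPKM). On high-fat diet Spp1 was highest, with 51.6 ± 13.6 RPKM in knockout livers and 87.9 ± 41.1 RPKM in wild-type livers, above Cd9 with no overlap in either genotype. Cd9, Tyrobp, Cd63 and Lgals3 followed in that order in both genotypes, with overlapping ranges between neighbours. Fabp5, Gpnmb, Trem2, Atp6v0d2 and Itgax came last, and Itgax averaged 1.31 ± 0.388 RPKM in knockout livers and 1.65 ± 0.583 RPKM in wild-type livers. Among these neighbours in the order, the only other gap without overlap was Lgals3 above Fabp5 in wild-type livers. On chow Cd9 came first, at 13.2 ± 1.12 RPKM in knockout livers and 13.5 ± 1.71 RPKM in wild-type livers, overlapping with Spp1, and Gpnmb came last at 0.0729 ± 0.0649 and 0.0625 ± 0.0146 RPKM. So Gpnmb, the lowest member per length on chow, was in place 7 of 10 on high-fat diet. With the length of all annotated exons, 8 to 9 of the 10 members in a group shifted, by at most 2 places.

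Promoters of 7 members were listed by RefSeq, covering 250 bases before and 50 bases after an annotated start, and were searched on both strands for 4 motifs of factors known in macrophages. The letters TGANTCA, a loose form of the AP-1 site, were in 3 of the 7 (Trem2, Gpnmb and Itgax) and in 7.81% of 32851 promoters. The AP-1 site itself has C or G in the middle, as in Gpnmb (TGACTCA) and Itgax (TGAGTCA). The Trem2 match, TGAATCA, lacks this. The share of promoters with the strict site was not counted. The core GAGGAA of PU.1 was in 3 of the 7 (Trem2, Spp1 and Cd63) and in 28.3% of promoters. The E-box CACGTG and the M-box TCATGTG of MITF and TFE factors were in 0 of the 7, and in 7.15% and 3.77% of promoters. These are letter matches in a short window and were not tested as binding sites. Cd9, Spp1, Cd63 and Lgals3, whose listed promoters lack TGANTCA, rose on high-fat diet as well. The promoters with TGANTCA are shown on the plus strand of GRCm38.p6, 5′ to 3′. Both motifs found are in capitals (TTCCTC is GAGGAA read on the other strand). The first base of the TGANTCA match lies at -9 from the start in Trem2 (chr17:48346151-48346450), at +9 in Gpnmb (chr6:49036268-49036567) and at -56 in Itgax (chr7:128129300-128129599).
Trem2: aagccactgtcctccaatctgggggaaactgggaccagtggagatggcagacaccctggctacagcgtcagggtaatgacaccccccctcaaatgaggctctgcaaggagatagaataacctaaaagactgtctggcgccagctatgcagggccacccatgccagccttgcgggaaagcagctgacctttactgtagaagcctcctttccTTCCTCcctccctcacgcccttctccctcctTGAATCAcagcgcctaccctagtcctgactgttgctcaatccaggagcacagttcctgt
Gpnmb: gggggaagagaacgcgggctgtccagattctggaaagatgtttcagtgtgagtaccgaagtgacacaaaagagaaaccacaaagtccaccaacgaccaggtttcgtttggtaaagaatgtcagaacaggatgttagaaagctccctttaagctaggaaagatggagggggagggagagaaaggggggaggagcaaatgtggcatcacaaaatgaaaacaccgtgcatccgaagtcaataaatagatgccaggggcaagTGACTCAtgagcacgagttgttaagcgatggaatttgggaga
Itgax: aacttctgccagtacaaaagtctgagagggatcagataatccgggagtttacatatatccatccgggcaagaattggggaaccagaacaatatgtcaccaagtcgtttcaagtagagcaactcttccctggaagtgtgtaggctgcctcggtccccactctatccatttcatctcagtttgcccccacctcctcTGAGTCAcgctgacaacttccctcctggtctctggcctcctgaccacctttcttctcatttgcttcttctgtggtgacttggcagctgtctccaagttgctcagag

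Other genes of the lipid-associated macrophage programme rose in many but not all cases. Of 24, 14 rose and 1 fell in knockout livers, and 14 rose and 1 fell in wild-type livers, with median log2 fold changes of 0.48 and 0.69. In knockout livers the largest rises were those of Mmp12, a macrophage elastase, at 5.19 ± 0.21, of Emp1 at 2.34 ± 0.29, of Lgals1, galectin-1, at 2.22 ± 0.32, and of Capg, an actin-capping protein, at 2.17 ± 0.23. In wild-type livers they were Mmp12 at 5.98 ± 0.27, Emp1 at 3.38 ± 0.36, Clec7a, the beta-glucan receptor dectin-1, at 2.94 ± 0.31, and Lpl, lipoprotein lipase, at 2.92 ± 0.24. Creg1, a lysosomal glycoprotein, fell by 0.61 ± 0.10 in knockout livers and by 0.39 ± 0.12 in wild-type livers. Apoe and Plin2, which hepatocytes also make, were named after their values were seen. Apoe had log2 fold changes of 0.01 ± 0.08 in knockout livers and 0.03 ± 0.09 in wild-type livers, and Plin2, a lipid droplet coat protein, had -0.05 ± 0.15 and -0.02 ± 0.17, and neither passed.

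Of the signalling genes downstream of TREM2 and TYROBP, 6 of 20 rose and 2 fell in knockout livers, and 9 of 20 rose and 1 fell in wild-type livers, with medians of 0.26 and 0.59. Syk, the kinase recruited to TYROBP, rose by 0.78 ± 0.20 in knockout livers and by 1.42 ± 0.23 in wild-type livers. Plcg2, the phospholipase of this pathway, rose by 1.00 ± 0.26 and 1.81 ± 0.32, and Card9, an adaptor of NF-κB signalling, by 1.25 ± 0.46 and 2.41 ± 0.58, in the same order of genotypes. Blnk, an adaptor of B cells and macrophages, rose by 2.38 ± 0.43 in knockout livers, and Inpp5d, the lipid phosphatase SHIP1 that restrains TREM2 signalling, rose by 1.63 ± 0.36 in wild-type livers. Ptpn6, the phosphatase SHP-1, fell by 0.44 ± 0.14 in wild-type livers, and Grb2 and Sos1, of the Ras pathway, fell by 0.21 ± 0.08 and 0.26 ± 0.09 in knockout livers. Among other receptors that use TYROBP, 4 of 11 rose in knockout livers and 7 of 11 in wild-type livers. The largest rise was that of Sirpb1a in knockout livers, at 2.18 ± 0.55, and that of Cd300lb in wild-type livers, at 2.83 ± 0.41, and the medians were 0.59 and 1.66.

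The gene families of single members were mixed. Of 19 other V-ATPase subunits, 6 rose in knockout livers and 8 in wild-type livers, with a median of 0.18 in both. The largest of these that passed was Atp6v1d, at 0.38 ± 0.08 in knockout livers and 0.37 ± 0.09 in wild-type livers. Of 13 other tetraspanins, 4 rose and 2 fell in each genotype, and Cd53, a tetraspanin of leukocytes, rose by 1.30 ± 0.16 in knockout livers and by 2.05 ± 0.20 in wild-type livers, while Tspan33 fell by 1.51 ± 0.26 and by 1.25 ± 0.29. Among galectins, Lgals1 rose as above and Lgals4, an epithelial galectin, fell by 0.83 ± 0.14 in knockout livers and by 1.18 ± 0.15 in wild-type livers. Fabp4, a fatty acid carrier of adipocytes and macrophages, rose by 2.01 ± 0.19 in knockout livers and by 2.50 ± 0.22 in wild-type livers, and Fabp1, the hepatocyte carrier, fell by 0.37 ± 0.12 and by 0.38 ± 0.13. Of 11 partners of Itgax and receptors of osteopontin, 3 rose and 2 fell in knockout livers and 8 rose in wild-type livers. Itgb2, the partner of Itgax, rose by 1.17 ± 0.23 in knockout livers and by 1.97 ± 0.28 in wild-type livers, and Cd44 rose by 1.14 ± 0.19 and by 1.88 ± 0.23.

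Of 12 regulators of these cells, 4 rose and 1 fell in knockout livers and 7 rose and 1 fell in wild-type livers. Spi1, which encodes PU.1, rose by 0.68 ± 0.21 in knockout livers and by 1.48 ± 0.25 in wild-type livers. Csf1, a macrophage growth factor, rose by 0.82 ± 0.17 and by 1.17 ± 0.20, and Pparg by 0.95 ± 0.20 and by 1.29 ± 0.23. Cebpa, a factor of hepatocytes and myeloid cells, fell by 0.36 ± 0.08 in knockout livers and by 0.31 ± 0.10 in wild-type livers. Mitf, Tfeb and Tfe3, of the MITF and TFE family known to act on lysosomal genes, were named after their values were seen. They did not pass in either genotype, and their log2 fold changes lay between -0.12 and 0.42.

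Markers of some other cell types rose with the members, and those of others did not. Of all genes tested, 17.4% rose in knockout livers and 15.2% in wild-type livers. All 8 monocyte markers rose in both genotypes, with medians of 2.87 in knockout livers and 3.17 in wild-type livers. Their summed level was 20.4 to 30.8 CPM in knockout livers and 26.7 to 36.2 CPM in wild-type livers on high-fat diet, against 4.39 to 6.93 and 3.67 to 6.96 CPM on chow. Ccr2, the receptor by which monocytes leave the marrow, rose by 3.32 ± 0.29 in knockout livers and by 2.87 ± 0.32 in wild-type livers. Of 10 pan-macrophage markers, 6 rose in knockout livers and 8 in wild-type livers, with medians of 0.73 and 1.45. Lyz2, the macrophage lysozyme, rose by 1.26 ± 0.19 in knockout livers and by 1.91 ± 0.22 in wild-type livers. Of 10 resident Kupffer cell markers, 0 rose and 1 fell in knockout livers (Cd163, by 2.01 ± 0.42), and 4 rose in wild-type livers, led by Cd5l at 1.32 ± 0.32. The defining Kupffer cell gene Clec4f, named after its values were seen, had 60.9 ± 19.8 CPM in knockout livers and 65.4 ± 24 CPM in wild-type livers on high-fat diet, against 60.3 ± 7.37 and 37.9 ± 13.5 CPM on chow, and did not pass in either genotype.

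Stellate cell and myofibroblast markers rose as well, 9 of 11 in knockout livers and 10 of 11 in wild-type livers. Their summed level was 427 to 541 CPM in knockout livers and 430 to 685 CPM in wild-type livers on high-fat diet, against 211 to 328 and 212 to 252 CPM on chow. Col1a1, the collagen I chain, rose by 3.40 ± 0.29 in knockout livers and by 4.06 ± 0.34 in wild-type livers. Of 7 cholangiocyte markers, which bear on Spp1, 1 rose in knockout livers (Krt19, by 1.07 ± 0.39) and 2 in wild-type livers (Muc1, by 1.60 ± 0.53, and Krt19, by 1.16 ± 0.41). Their summed level of 19.8 to 23.3 CPM in knockout livers and 19.0 to 33.2 CPM in wild-type livers on high-fat diet compares with 17 to 21.7 and 17 to 27.1 CPM on chow. Among other lists, Adipoq of adipocytes was at 0 in wild-type livers on high-fat diet, and Mmp8 and Mpo of neutrophils were at 0 in wild-type livers on chow.

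Of dendritic cell markers, 1 of 8 rose in knockout livers and 3 rose and 1 fell in wild-type livers. Neutrophil markers that could be tested rose in 1 of 4 cases in knockout livers and 3 of 4 in wild-type livers, and their summed level was at most 8.64 CPM in any high-fat library. Erythroid markers rose in 0 of 6 cases in knockout livers and in 5 of 6 in wild-type livers. Of sinusoidal endothelial markers, 0 of 10 rose and 4 fell in knockout livers, while 4 rose in wild-type livers. Hepatocyte markers fell in 6 of 10 cases in knockout livers and 7 of 10 in wild-type livers. T and NK cell markers rose in 0 of 9 and 1 of 9 cases, B and plasma cell markers in 1 of 7 and 0 of 7, and adipocyte markers in 3 of 4 and 2 of 4, knockout livers first. Among all genes, 17.4% rose and 16.2% fell in knockout livers, and 15.2% rose and 14.2% fell in wild-type livers. The part of any of these cell types in the members' changes was not tested.

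**Figure D3:**
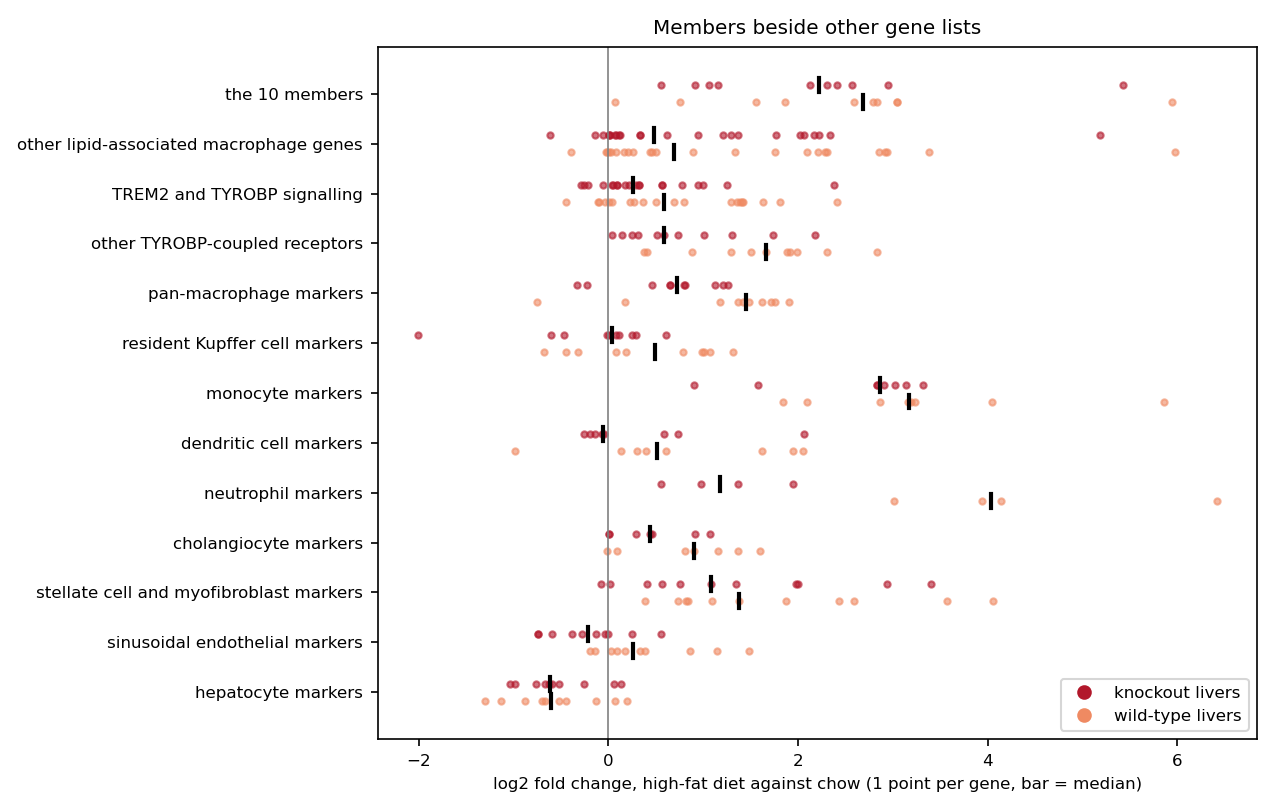
Log2 fold change for high-fat diet against chow (horizontal axis) of each tested gene (points) in the 10 members and 12 other lists, in knockout and wild-type livers, with the list median as a black bar. In knockout and wild-type livers the medians are 2.22 and 2.69 for the members, 2.87 and 3.17 for monocyte markers, 0.04 and 0.49 for resident Kupffer cell markers and -0.61 and -0.60 for hepatocyte markers.

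The members were also set against the summed CPM of the 10 pan-macrophage markers of the same library, as a description with no test. That sum was 335 to 643 CPM in knockout livers and 368 to 534 CPM in wild-type livers on high-fat diet, against 271 to 365 and 171 to 327 CPM on chow. Abundant markers weigh most in the sum. Its group medians were 377 and 464 CPM on high-fat diet and 305 and 280 CPM on chow, knockout livers first. The median log2 fold change of the 10 markers was 0.73 and 1.45. Ratios to a typical marker can therefore be smaller than those given here. Per 1000 CPM of these markers, Gpnmb was 30 in knockout livers and 32.3 in wild-type livers on high-fat diet, against 0.889 and 0.909 on chow, which is 33.8-fold and 35.5-fold higher. Trem2 was 4.29-fold higher in knockout livers and 4.28-fold higher in wild-type livers by this measure, with no overlap in either genotype. Spp1 was 3.83-fold and 3.34-fold higher, Itgax 5.81-fold and 3.68-fold, Cd63 4.53-fold and 3.92-fold, and Lgals3 3.41-fold and 3.74-fold, knockout livers first. The diets were apart by this measure in both genotypes for Gpnmb, Trem2, Spp1, Itgax and Lgals3, and for Cd63 in wild-type livers alone. The share of all genes that are apart by this measure was not computed. On plain CPM, 26.5% of all genes did not overlap in knockout livers and 36% in wild-type livers. Tyrobp was 1.44-fold higher in knockout livers, where the diets overlapped, and 2.02-fold higher in wild-type livers. Atp6v0d2 (1.67-fold and 1.41-fold), Cd9 (1.14-fold and 0.873-fold) and Fabp5 (1.72-fold and 0.465-fold) overlapped between diets in both genotypes. The wild-type values of Cd9 and Fabp5 rest on chow wild type 2, which had the lowest marker sum, 171 CPM. Its ratio was 60.1 for Fabp5, against 6.33 and 12.7 in chow wild type 1 and 3. For Cd9 it was 108, against 44.0 and 60.3. In knockout livers the overlaps of Cd63, Tyrobp and Atp6v0d2 rest on high-fat knockout 1, which had the highest marker sum, 643 CPM. Its ratios were 9.02, 14.8 and 4.22, against highest chow knockout ratios of 9.23, 17.7 and 8.06. The other high-fat knockout libraries had at least 20.6, 19.2 and 8.97.

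**Figure D4:**
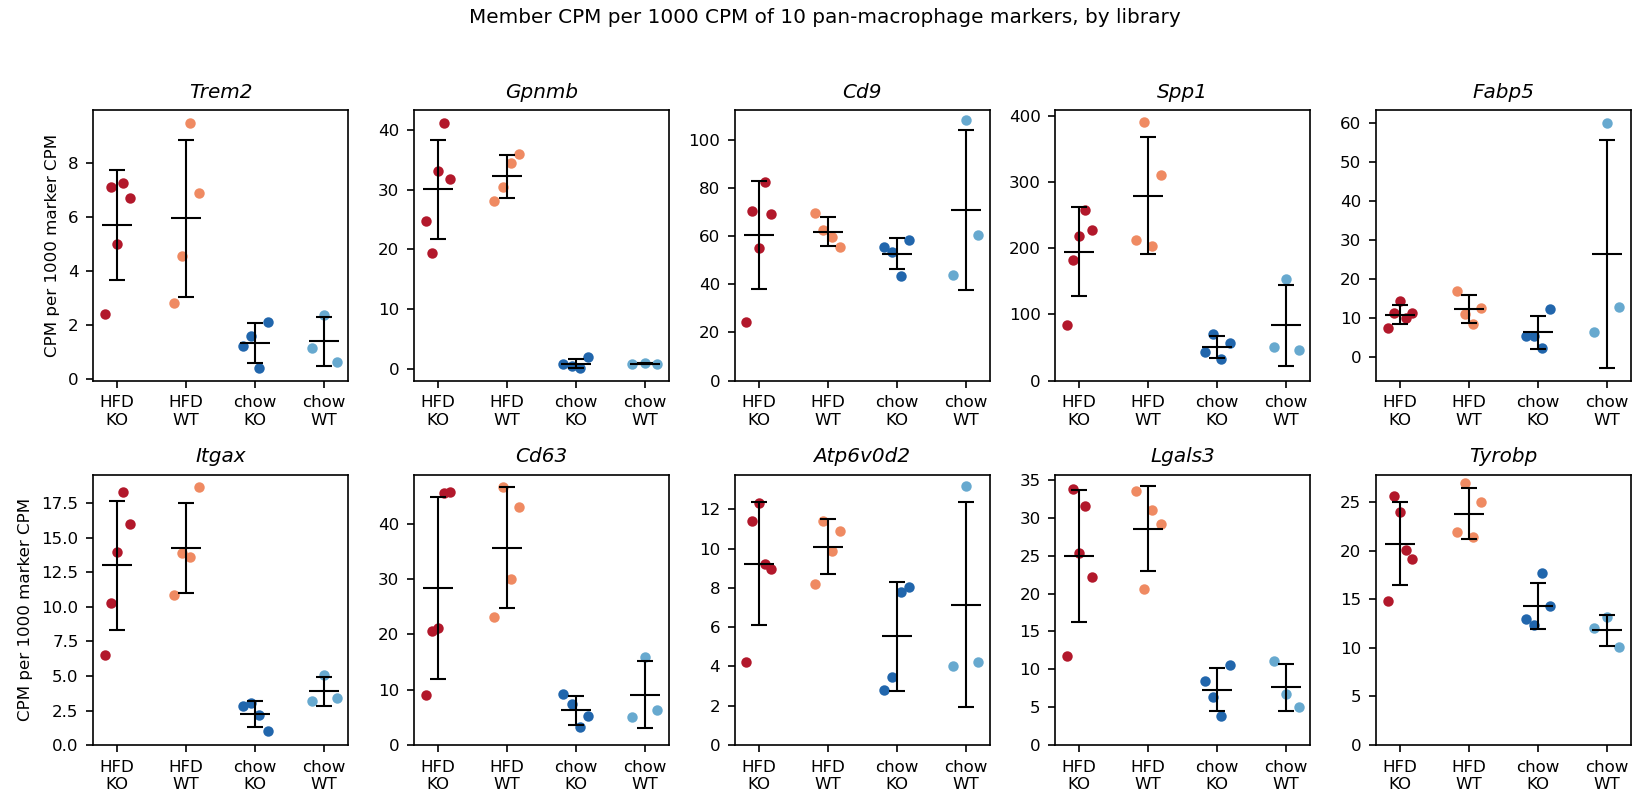
CPM of each member per 1000 summed CPM of 10 pan-macrophage markers (vertical axis, linear) in every library, with the mean and SD of each group as bars, for knockout (KO) and wild type (WT) livers on high-fat diet (HFD) and chow. Gpnmb, Trem2, Spp1, Itgax and Lgals3 stay separated by diet in both genotypes, and Cd9, Fabp5 and Atp6v0d2 do not.

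Single libraries differed in the members as a group. On high-fat diet, high-fat wild type 4 was among the 3 highest of 9 libraries for all 10 members, high-fat wild type 2 for 8 and high-fat knockout 4 for 7. High-fat knockout 1, which stands apart, was the lowest for 5 members (Cd9, Spp1, Cd63, Atp6v0d2 and Lgals3). The same library had the highest summed pan-macrophage level of all, 643 CPM, and the lowest hepatocyte sum, 81100 CPM. On chow, chow knockout 3 was lowest for 4 of the 10 members and highest for 2 (Atp6v0d2 and Tyrobp), so the members did not move together there.

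Knockout and wild-type livers on high-fat diet were compared to ask whether loss of hepatic miR-33 changed these genes on that diet. By edgeR 0 of 10 members passed, and 1 gene of all those tested did (0.00594%, 0.00594% higher and 0% lower). At an unadjusted p under 0.05 there was 1 member, Spp1, against 3.81% of all genes, and DESeq2 and limma voom also called 0 members. All 10 fitted values were below 0, with a median of -0.34 and a range of -0.77 to -0.22, while the median over all genes was 0. They stayed below 0 in each of the 24 alternative fits, which spanned -0.95 to -0.02, but they come from the same 9 libraries and are not independent of each other. Fits that left out a chow library kept all 9 of these libraries, so they hardly bear on the sign. All 10 members overlapped between the genotypes, as did all but 1.24% of genes.

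Spp1 was farthest from 0, at 77.8 ± 20.4 CPM in knockout livers and 132 ± 61.9 CPM in wild-type livers on high-fat diet (SD, n = 5 and 4), a log2 fold change of -0.77 ± 0.32 (adjusted p 1). Cd63 had 11.3 ± 6.11 CPM in knockout livers and 17 ± 7.71 CPM in wild-type livers, -0.58 ± 0.38 on the log2 scale. Tyrobp had 8.5 ± 0.877 and 11 ± 3.04 CPM in the same groups, or -0.38 ± 0.19. The SD in wild-type livers exceeded the difference between the means for each of these 3 genes. The SD in knockout livers did so for Cd63 alone. The other log2 values were -0.36 ± 0.24 for Lgals3, -0.35 ± 0.29 for Atp6v0d2, -0.33 ± 0.25 for Itgax, -0.32 ± 0.40 for Fabp5, -0.26 ± 0.32 for Trem2, -0.23 ± 0.16 for Cd9 and -0.22 ± 0.25 for Gpnmb. In the same comparison 0 genes of every other list passed, and the medians were -0.14 for the other lipid-associated macrophage genes, -0.15 for pan-macrophage markers, -0.24 for monocyte markers, -0.25 for stellate cell markers, -0.61 for the 6 erythroid markers, -0.65 for the 7 cholangiocyte markers and -1.08 for the 4 neutrophil markers, and all genes of these last 3 lists were below 0. The part of these cell types in the members' values was not tested.

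On chow, 0 of 10 members passed by edgeR, DESeq2 or limma voom, where 1 gene of all did (0.00594%, again 1 higher and 0 lower). Here 5 members were above 0 and 5 below, with a median of 0.03, and all 10 overlapped between the genotypes, as did all but 5.62% of genes. At an unadjusted p under 0.05 there were 2 members, Fabp5 and Tyrobp, against 5.95% of all genes. Fabp5 had 1.91 ± 1.34 CPM in knockout livers and 5.31 ± 4.39 CPM in wild-type livers (SD, n = 4 and 3), -1.42 ± 0.49 on the log2 scale (adjusted p 0.773), and -0.50 (adjusted p 0.905) without chow wild type 2. Gm6166 and Gm14328, which match Fabp5 transcripts at up to 98.3% identity, were at -1.63 ± 0.61 and -2.82 ± 0.95 in this comparison and did not pass, so reads may be divided among them. Tyrobp had 4.54 ± 1.34 CPM in knockout livers and 3.02 ± 0.855 CPM in wild-type livers, 0.56 ± 0.25 on the log2 scale (adjusted p 0.827). In this comparison 9 of 10 pan-macrophage markers were above 0, with a median of 0.41, as were all 10 Kupffer cell markers, with a median of 0.57, and 0 of them passed. Their part in the value of Tyrobp was not tested.

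Whether the effect of the knockout depended on diet was tested as an interaction, which passed for 0 of 10 members by edgeR, DESeq2 and limma voom, and for 0% of all genes by edgeR, in either direction. At an unadjusted p under 0.05 there was 1 member, against 6.6% of all genes. That member was Tyrobp, at -0.94 ± 0.32 on the log2 scale (adjusted p 0.664, and between 0.305 and 1 in the alternatives). The diet effect was thus fitted smaller in knockout livers, 0.92 against 1.86, but the difference failed the adjustment. The pan-macrophage markers had a median difference of -0.60, with 9 of 10 below 0 and 0 passing, and their part in the value of Tyrobp was not tested. Fabp5 was at 1.09 ± 0.63 (adjusted p 0.822) and at 0.18 without chow wild type 2. The other members lay between -0.64 ± 0.67 (Trem2) and 0.16 ± 0.48 (Itgax).

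A microRNA pairs through its seed, bases 2 to 8, with sites mostly in the last untranslated part of a messenger RNA, and miR-33 is known for repressing the sterol exporter Abca1. The mature arms lie on chromosome 15 and are given with the seed in capitals, from RefSeq on GRCm38.p6. Both common kinds of site were searched: letters that pair with the whole seed, and letters that pair with bases 2 to 7 and are followed by an A. The whole seed of miR-33-5p (CAATGCA) was matched in 1 of 10 members, Atp6v0d2 at base 706, against 7.52% of 13099 genes. The other kind (AATGCAA) was in 3 of 10 members, Spp1, Fabp5 and Atp6v0d2 at bases 388 and 482, against 11.4% of genes. For miR-33-3p the whole seed (AAACATT) was matched in 1 of 10, Trem2, against 20.4%, and the other kind (AACATTA) in 0 of 10, against 11.1%. None of these genes passed between knockout and wild type on either diet. These are letter matches, and no site was tested. The windows of 29 bases around the matches are shown for comparison with the arms, with the match in capitals, on the strand of each gene. The match begins at base 227 of the 432-base segment in Spp1 and at base 69 of 487 in Fabp5. In Atp6v0d2, matches begin at bases 388, 482 and 706 of 1378, and in Trem2 the match begins at base 230 of 249.
miR-33-5p: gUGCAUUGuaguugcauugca
miR-33-3p: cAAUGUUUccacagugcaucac
Spp1: cctgtacaagaAATGCAAacggccactgc
Fabp5: gtgagcggtcaAATGCAAcaaacagcttc
Atp6v0d2, base 388: gcattcacgaaAATGCAAagctgtgggta
Atp6v0d2, base 482: tagattccccaAATGCAAgcattgttaaa
Atp6v0d2, base 706: taaagttgaaaCAATGCAgaggttgctca
Trem2: ctttggacattAAACATTctccacacacc

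The genes whose level was most like that of a member over the 16 libraries were found by the root mean square difference of centred log2 CPM among 11408 genes, as a description over libraries that share diet and depth. Nearest to Gpnmb were Mmp12 (0.45), A4gnt (0.55) and Ttc39a (0.74). Mmp12 averaged 14.5 and 16.3 CPM in knockout and wild-type livers on high-fat diet, against 0.386 and 0.243 CPM on chow, so a macrophage elastase kept nearly the same levels as Gpnmb in all 4 groups. A4gnt, which encodes a glycosyltransferase, averaged 5.43 and 7.07 CPM on high-fat diet, against 0.0221 and 0.0351 CPM on chow, again knockout livers first. Tyrobp was closest to Abcg3 (0.15), Cd68 (0.20), which encodes macrosialin, and Laptm5 (0.21), a lysosomal protein of leukocytes. Trem2 was closest to Col1a2 (0.36), a collagen I chain, Fabp4 (0.45) and Loxl2 (0.46), a collagen cross-linking enzyme.

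Spp1, Itgax and Cd63 shared Cpxm1 (0.34, 0.30 and 0.34), a carboxypeptidase-like protein, as their nearest gene and Col1a2 (0.40, 0.44 and 0.38) as the second, and Spp1 and Cd63 were each other's nearest member at 0.36. Lgals3 was closest to Tlr2 (0.31), a receptor for bacterial lipoproteins, Lgals1 (0.32) and Osbpl3 (0.34). Atp6v0d2 was closest to Ccdc34 (0.34), Serpinb9 (0.35) and Ncf4 (0.35), a subunit of the phagocyte oxidase. Cd9 was closest to Fkbp1a (0.14), Arhgdia (0.15) and Gpi1 (0.15), genes made by most cells. Fabp5 was closest to Sdf2l1 (0.41), a factor of the endoplasmic reticulum, Serpina12 (0.54) and Pdia6 (0.56), a disulphide isomerase. Sdf2l1 averaged 27.7 and 20.1 CPM in knockout and wild-type livers on high-fat diet, against 8.95 and 18.9 CPM on chow, so it too was lowest in knockout livers on chow. Gpnmb was the farthest member from each of the other 9, at 1.49 or more.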

How the data were processed

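Liver RNA of 16 mouse samples was depleted of ribosomal RNA with Ribo-Zero and sequenced, per the labels' protocols. The same protocols name a small RNA library kit and a cycle number that does not match the read length, so how the libraries were prepared is uncertain. TopHat2, Cuffdiff and the build mm10 are named in the submitters' processing notes, and their versions and the strand setting are unknown here. The authors deposited 1 table of estimated counts per gene, in which 32.8 to 37.9% of values per library were whole. Its name mentions FPKM, but the values are not scaled to length or depth. Counts were rounded. The 10 members and all lists (other lipid-associated macrophage genes, TREM2 and TYROBP signalling and receptors, regulators, gene families of single members, and 13 cell type marker lists) were chosen with earlier results of these data known.

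Genes were filtered with filterByExpr, scaled by TMM and fitted with edgeR 4.0.16 (R 4.3.3; quasi-likelihood, robust) in 1 model of 4 groups, with 12 residual degrees of freedom. Each SE is the absolute log2 fold change over the root of its F value. The 5 contrasts were adjusted over 16830 genes. Alternatives were RLE scaling, no filter, a stricter filter (1 CPM in 3 libraries), DESeq2 1.42.0, limma 3.58.1 voom, only the compared groups, no ribosomal RNA gene, and libraries left out. The exon length used for levels was varied after the data were seen. From each list, up to 4 rises and 2 falls past the threshold were named, and exceptions are stated; likeness used genes of at least 1 CPM and a prior count of 2. Coordinates are from GENCODE M21, and copies were sought with BLAST at 90% identity over 200 bases. Library numbers follow accession order. The fit was tested on simulated counts, drawn with the spread that edgeR estimated from these data. Such counts hold no library that stands apart, so that test bears on the code and not on these libraries. Among listed genes, Atp6v1b1, Atp6v1c2, Fabp6, Pmp2, Lgals6, Ly6g, Plin1, Lep and Retn were not analysed here.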

Additional observations from a re-analysis of the deposited data

How the results depend on the processing

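The count of members that rose on high-fat diet was 8 to 10 in knockout livers over 24 alternatives and 9 in wild-type livers in all 24. In knockout livers it was 10, with Fabp5 passing, under the stricter filter (adjusted p 0.0488), DESeq2 (0.0116), limma voom (0.0297), a fit of only the compared groups (0.0192), without the ribosomal RNA gene (0.0499) and without chow knockout 4 (0.00742), chow wild type 1 (0.0264) or chow wild type 2 (0.0113). It was 8 without chow knockout 1 or chow knockout 2, where Atp6v0d2 did not pass. Over the same 24 alternatives, 4631 to 5920 genes of all passed in knockout livers and 3711 to 5224 in wild-type livers, in either direction. Fits that left out a knockout library kept every library of the wild-type diet comparison, and the reverse. Between knockout and wild type, and in the difference between diets, 0 members passed in every alternative. With both libraries that stand apart left out, 9 members rose in each genotype. The values that changed sign had not passed. They were Fabp5 with diet in wild-type livers (-0.13 with both libraries left out), and, between knockout and wild type on chow, Gpnmb (-0.03 by voom), Atp6v0d2 (-0.01 by voom and -0.02 with both left out) and Lgals3 (-0.12 with both left out). Leaving out 1 library gave -0.33 to 0.99 for Fabp5 with diet in wild-type livers. On chow it gave, between knockout and wild type, -0.53 to 0.53 for Gpnmb, -0.12 to 0.06 for Cd9, -0.45 to 0.09 for Spp1, -0.25 to 0.16 for Cd63, -0.12 to 0.48 for Atp6v0d2 and -0.18 to 0.81 for Lgals3. For the difference between diets it gave -0.75 to 0.31 for Gpnmb and -0.11 to 0.37 for Itgax, against -0.52 and 0.16 in the main fit. The cause of these changes was not tested. Over all genes, the count between knockout and wild type on high-fat diet was 1 and became 3 with no filter, 8 by DESeq2, 2 by voom, 4 with only the compared groups and 1 to 4 with 1 library left out. On chow it was 1 and became 2 by DESeq2, 0 by voom, 0 with only the compared groups and 0 to 3 with 1 library left out. For the difference it was 0, 2 by DESeq2 and 0 to 4 with 1 library left out. No paired analysis was possible because the labels give no replicate numbers shared between groups. On chow Trem2 and Gpnmb rest on few counts, which limits their fold changes and any comparison of genotypes there. Lone libraries far from their group were sought by Dixon's gap ratio in 30 groups of values, and 0 were found. Wild type on chow (n = 3) was too small for this and was not searched. Fabp5 in chow wild type 2 was therefore not covered.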
